A study of Homo sapiens with 9 samples.

Results

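The 9 small nucleolar RNA (snoRNA) host transcripts read here were GAS5, SNHG1, SNHG5, SNHG6, SNHG8, SNHG12, SNHG15, SNHG16 and ZFAS1. They were followed on palbociclib, a cell cycle inhibitor, and in cells with a knockout of the stress kinase PERK. They were taken by name from a table of 70116 gene IDs. All 9 passed the filter on low counts that left 19408 genes for testing. On palbociclib, SNHG1, SNHG12, SNHG15 and SNHG5 fell, and SNHG6 and SNHG8 rose by a small amount. In PERK knockout cells on the drug, GAS5 was lower than in wild-type cells on the drug, SNHG8 and SNHG16 were higher, and none of the 4 that fell with the drug passed the test.

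The cells were U2OS, an established human osteosarcoma line. There were 3 libraries of wild-type cells given vehicle, 3 of wild-type cells given palbociclib for 4 days and 3 of PERK knockout cells given palbociclib for 4 days, numbered set 1, set 2 and set 3. Palbociclib inhibits the cyclin-dependent kinases CDK4 and CDK6 and holds cells with an intact retinoblastoma pathway before DNA replication. PERK, encoded by EIF2AK3, phosphorylates the initiation factor eIF2α when unfolded proteins build up in the endoplasmic reticulum, which slows translation. The knockout was made with CRISPR/Cas9, and whether it is 1 clone or a pool is not given in the sources used here. Knockout cells on vehicle were not analysed here, so the effect of the drug in knockout cells has no value, and the knockout can be read only on the drug. The labels do not say whether the sets are separate cultures, so the p-values rest on a spread among libraries that may be purely technical.

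A snoRNA host gene carries 1 or more snoRNAs in its introns. When the host transcript is spliced, the intron is trimmed to the snoRNA, which joins proteins such as fibrillarin or dyskerin and guides the 2′-O-methylation or pseudouridylation of other RNAs, ribosomal RNA above all. Many host transcripts begin with a run of pyrimidines after a C, the 5′ terminal oligopyrimidine (TOP) motif, by which the mTOR pathway and the LARP1 protein regulate translation of ribosomal protein mRNAs. The spliced exons of hosts such as GAS5 hold only short reading frames, and when ribosomes read them the RNA is a substrate of nonsense-mediated decay, so that host RNA is known to build up when translation or growth stops. GAS5 was named for its accumulation in growth-arrested cells.

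The start regions show what these genes share at the promoter. RefSeq start sites on GRCh38.p14 were matched for 7 of the 9 members, with SNHG6 and SNHG15 unmatched. Each sequence runs 5′ to 3′ on the gene's strand, from 40 bases before the start site through the first 50 bases of the transcript. Capitals mark the letters TATAA where they lie 40 to 20 bases before the start, and a C followed by at least 4 pyrimidines (C or T) where that run begins within 10 bases of the start. In GAS5 they mark the first such run farther in.
GAS5 (chr1:173868996-173869085, minus strand): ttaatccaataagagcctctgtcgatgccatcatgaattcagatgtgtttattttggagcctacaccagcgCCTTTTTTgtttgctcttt
SNHG1 (chr11:62855836-62855925, minus strand): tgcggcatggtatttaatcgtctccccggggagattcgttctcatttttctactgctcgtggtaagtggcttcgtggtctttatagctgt
SNHG12 (chr1:28581824-28581913, minus strand): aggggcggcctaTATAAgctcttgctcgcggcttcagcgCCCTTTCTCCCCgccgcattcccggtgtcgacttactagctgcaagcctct
SNHG5 (chr6:85678684-85678773, minus strand): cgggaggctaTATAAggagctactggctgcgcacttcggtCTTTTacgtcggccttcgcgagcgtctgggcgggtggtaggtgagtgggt
SNHG8 (chr4:118278722-118278811, plus strand): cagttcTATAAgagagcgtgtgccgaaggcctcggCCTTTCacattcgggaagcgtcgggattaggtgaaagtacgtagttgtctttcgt
SNHG16 (chr17:76557724-76557813, plus strand): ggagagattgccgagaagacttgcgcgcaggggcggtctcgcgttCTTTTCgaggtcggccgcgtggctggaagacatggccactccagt
ZFAS1 (chr20:49278602-49278691, plus strand): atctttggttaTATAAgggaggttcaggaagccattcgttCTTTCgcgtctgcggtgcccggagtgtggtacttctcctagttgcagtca

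Counting the first transcribed base as position 1, the pyrimidine run began at position 1 in SNHG5 and ZFAS1, at position -1 in SNHG12, at position -5 in SNHG8 and at position 6 in SNHG16. It was thus within 10 bases of the start in 5 of 7 members, against 31.4% of 35116 RefSeq promoters read in the same window on the gene's strand. In GAS5 the first run began at position 32, and the start site that GENCODE release 29 gives for GAS5 lies 163 bases farther downstream than the RefSeq one. For SNHG12 and ZFAS1 the annotations disagree more, the GENCODE gene reaching 1259 and 464 bases farther upstream. For SNHG8 and SNHG5 it reaches 53 and 15 bases farther upstream. The marked matches in these 4 members thus hold for the RefSeq start alone. In SNHG16 the 2 start sites lie 2 bases apart. The letters TATAA stood in the window before the start of SNHG5, SNHG8, SNHG12 and ZFAS1. That is 4 of 7 on the gene's strand, against 3.77% of all promoters, and 4 of 7 on either strand, against 4.5%. Both motifs, whose windows do not overlap here, were held by the same 4 members and by 1.21% of promoters. These are matches of letters and no measure of transcription or translation.

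Depth was 33674039 to 42577874 counts per library. EIF2AK3, the edited gene, was at 33.1 ± 1.6 CPM (counts scaled to library size; SD, n = 3) on vehicle, 34.8 ± 2.6 CPM on palbociclib and 18.7 ± 0.97 CPM in the knockout. All 3 knockout libraries were below all others, with an adjusted p of 5.98e-09 against wild-type cells on the drug, so mRNA was reduced and not gone. All 8 genes of a mesenchymal and bone list were tested and summed to 6091 to 6636 CPM on vehicle, 9349 to 10758 CPM on palbociclib and 9281 to 11411 CPM in the knockout. In the same order, 6 of 7 epithelial genes were tested and the list summed to 655 to 689, 865 to 918 and 568 to 591 CPM. The endothelial list (4 of 6 genes tested) summed to 5.70 to 6.15, 8.78 to 9.66 and 10.5 to 11.9 CPM. The haematopoietic list (1 of 7 tested) summed to 0.304 to 0.509, 0.589 to 0.658 and 0.545 to 0.722 CPM, with CD3E and HBB at 0. The summed mesenchymal, endothelial and haematopoietic levels were higher in both drug-treated groups than on vehicle, and the epithelial and endothelial sums also differed between these groups without overlap. The part of these markers in the results was not tested. None of the 13 mitochondrial mRNAs passed in any comparison of the edgeR fit of all 9 libraries without the set as a block. For the drug, 1 passed without the vehicle library of set 2. Between knockout cells on the drug and vehicle, 1 passed with only the 6 libraries compared, or without the wild-type palbociclib library of set 3. With the replicate block 5 passed for the drug and 7 between knockout cells on the drug and vehicle.

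Per kilobase of exon in GENCODE 29, the order of levels on vehicle put the shortest member first. SNHG8 stood at 42.7 ± 2.8 CPM per kilobase (SD, n = 3). SNHG6 at 34.1 ± 2.2, GAS5 at 32 ± 2.3 and SNHG1 at 30.0 ± 2.8 CPM per kilobase came next, and these neighbours were within their spread of each other. SNHG16 followed at 13.8 ± 0.38 CPM per kilobase. ZFAS1 at 9.34 ± 0.42 and SNHG15 at 8.12 ± 0.93 CPM per kilobase were again within their spread, ahead of SNHG12 at 3.94 ± 0.29 and SNHG5 at 0.945 ± 0.12 CPM per kilobase. On palbociclib GAS5 was at 27.8 ± 2.7 and SNHG1 at 19.8 ± 0.89 CPM per kilobase, and in the knockout they stood level, at 19.8 ± 1.9 and 20.1 ± 1.2 CPM per kilobase. SNHG16 rose to 17.7 ± 0.55 CPM per kilobase in the knockout, and SNHG8 kept the top place in every group, with 47.5 ± 2.3 on palbociclib and 54.7 ± 1.7 CPM per kilobase in the knockout.

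The members did not move as a block. The sum of their levels was 452, 428 and 485 CPM on vehicle, 402, 389 and 420 CPM on palbociclib, and 411, 377 and 394 CPM in the knockout, in the order of the sets. Every drug-treated library was below every vehicle library, and the 2 drug-treated groups overlapped. SNHG1 and GAS5 make up much of this sum, so that it says little of the less abundant members. The plot of levels by library shows the different patterns that the sum hides.

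**Figure D1:**
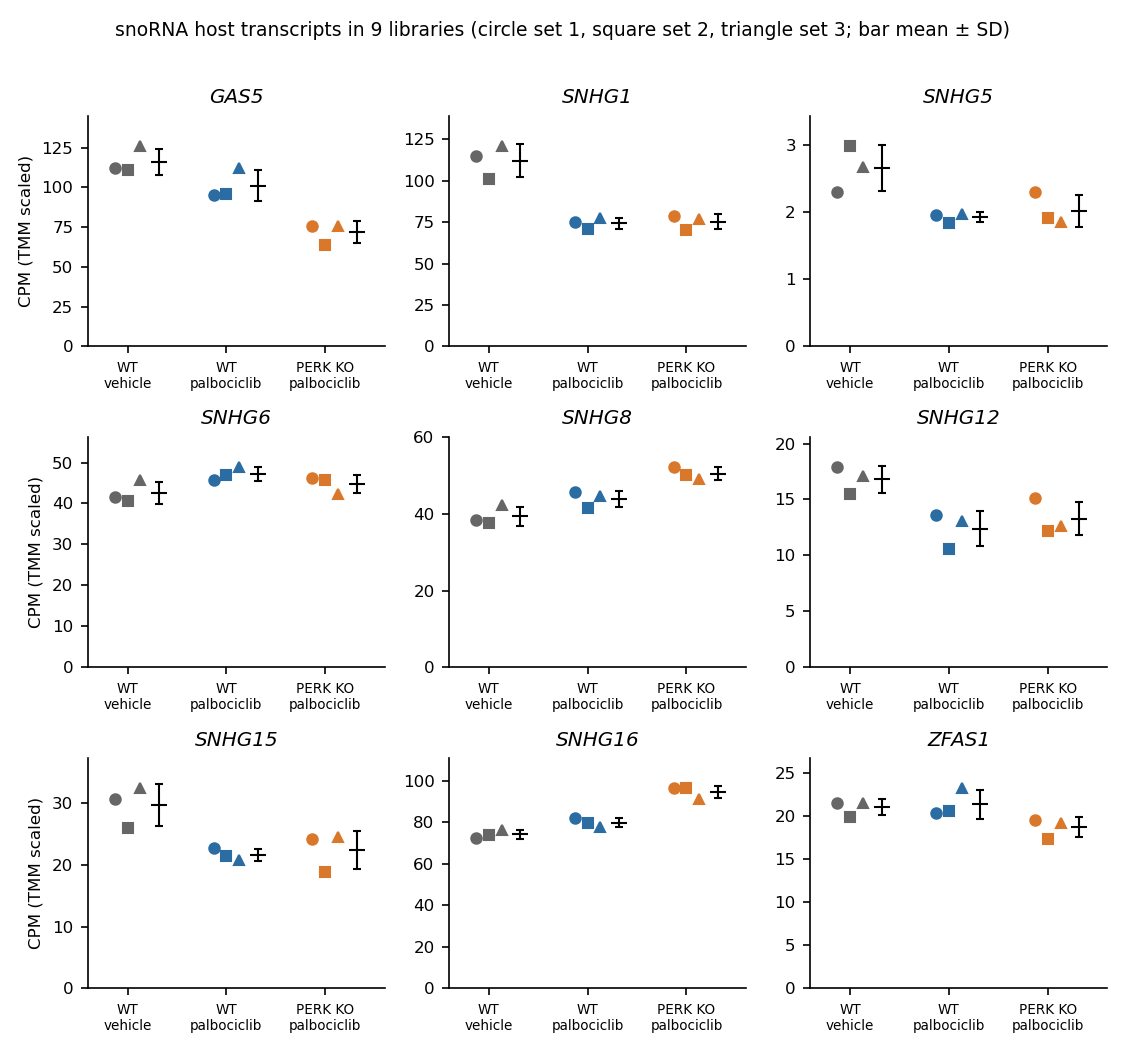
Levels of the 9 host transcripts in 9 libraries. Each panel is 1 gene, the y axis is CPM scaled by TMM factors and starts at 0, each symbol is 1 library of 1 of the 3 groups (vehicle, drug, and drug with PERK knockout), the symbol shape gives the set, and bars are mean ± SD (n = 3). SNHG1, SNHG12 and SNHG15 drop between the first and the second group, GAS5 is lowest in the third, and SNHG8 and SNHG16 are highest in the third.

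The first comparison asked what 4 days of palbociclib did to the hosts in wild-type cells. In it 6 of the 9 members passed an adjusted p of 0.05 in edgeR's quasi-likelihood test, 4 lower and 2 higher. Of all tested genes 43.7% passed, 22.3% lower and 21.3% higher, so a call by itself says little about these genes. Their median log2 fold change was -0.20, beside -0.02 over all tested genes. The vehicle and palbociclib libraries did not overlap for 4 members that were lower (SNHG1, SNHG5, SNHG12 and SNHG15) and 2 that were higher (SNHG6 and SNHG16) on the drug, against 26.9% and 24.7% of tested genes (51.6% in either direction).

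SNHG1 showed the largest change. Its gene (ENSG00000255717.9) lies at chr11:62851988-62855914 on the minus strand of GRCh38 and carries several C/D box snoRNAs, among them SNORD22 and SNORD31. The vehicle libraries of sets 1, 2 and 3 held 115, 101 and 121 CPM of SNHG1, the palbociclib libraries 75.1, 70.8 and 77.4 CPM, and the knockout libraries 79.0, 70.5 and 76.7 CPM. All 6 drug-treated libraries were far below all 3 vehicle libraries, and wild-type and knockout cells on the drug overlapped. SNHG1 fell by 33.8% on palbociclib (log2 fold change -0.60 ± 0.063 SE, adjusted p = 4.01e-07). Set 2 was the lowest of the 3 sets in every group.

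SNHG15 and SNHG12 followed the same course at lower levels. SNHG15 (ENSG00000232956.10, chr7:44983023-44986961, minus strand), the host of SNORA9, was counted at 30.6, 25.9 and 32.4 CPM on vehicle, 22.7, 21.4 and 20.8 CPM on palbociclib, and 24.1, 18.8 and 24.4 CPM in the knockout. Every drug-treated library was below the lowest vehicle library. It fell by 27.0% on the drug, a log2 fold change of -0.45 ± 0.099 with an adjusted p of 0.00168. SNHG12 (ENSG00000197989.15, chr1:28578538-28583132, minus strand) is the host of SNORD99 and other snoRNAs. Its levels were 17.9, 15.5 and 17.1 CPM on vehicle, 13.6, 10.6 and 13.1 CPM on palbociclib, and 15.1, 12.2 and 12.6 CPM in the knockout. The wild-type groups were again apart, and SNHG12 fell by 26.1% (log2 fold change -0.44 ± 0.099, adjusted p = 0.00140).

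SNHG5 (ENSG00000203875.13, chr6:85660950-85678748, minus strand), the host of SNORD50 snoRNAs, was the least counted. It stood at 2.30, 2.98 and 2.67 CPM on vehicle, 1.95, 1.83 and 1.97 CPM on palbociclib, and 2.29, 1.91 and 1.85 CPM in the knockout. The wild-type groups did not overlap, with a log2 fold change of -0.47 ± 0.16 and an adjusted p of 0.0239. This call was lost under 7 alternatives, with an adjusted p of up to 0.119 without the vehicle library of set 2. Its low level needs care, because genes that every cell uses were also listed near 0 in this table: FBL, for fibrillarin, had 0 to 1 counts per library and RPS2 had 2 to 8. The way reads were assigned to genes is not given in the sources used here, and its part in the SNHG5 level was not tested.

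SNHG8 and SNHG6 were the members called higher on the drug, both by a small amount. SNHG8 (ENSG00000269893.10, chr4:118278709-118279823, plus strand), the host of SNORA24, was at 38.5, 37.5 and 42.3 CPM on vehicle and 45.6, 41.5 and 44.6 CPM on palbociclib, and the lowest palbociclib library lay below the highest vehicle one. Its log2 fold change was 0.15 ± 0.058 with an adjusted p of 0.0379. SNHG6 (ENSG00000245910.9, chr8:66921684-66926398, minus strand), the host of SNORD87, was at 41.5, 40.6 and 45.7 CPM on vehicle, 45.8, 46.9 and 48.9 CPM on palbociclib, and 46.3, 45.7 and 42.3 CPM in the knockout. The wild-type groups were separated by the narrowest of margins, and the knockout overlapped both. SNHG6 had a log2 fold change of 0.15 ± 0.058 on the drug with an adjusted p of 0.0434. Neither call is firm: without the vehicle library of set 2 the adjusted p was 0.173 for SNHG8 and 0.189 for SNHG6, and without the palbociclib library of set 1 it was 0.150 and 0.0531. Without either of those libraries only 3 members were called, namely SNHG1, SNHG12 and SNHG15.

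GAS5, SNHG16 and ZFAS1 did not pass for the drug. GAS5 had a log2 fold change of -0.20 ± 0.080 (adjusted p = 0.0558, 95% interval -0.37 to -0.03), and with the set as a replicate block the adjusted p was 0.000317. SNHG16 had a log2 fold change of 0.11 ± 0.048 (adjusted p = 0.0837), and 0.0466 with the replicate block. ZFAS1 had a log2 fold change of 0.03 ± 0.073 (adjusted p = 0.791, 95% interval -0.13 to 0.18). With the block, which compares libraries within a set, 8 of the 9 members were called for the drug, beside 50.3% of all tested genes in the same fit.

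The second comparison set knockout against wild-type cells, both on palbociclib, and asks how the PERK knockout cells differ on the drug. It shares the wild-type palbociclib libraries with the first comparison, so that an error in those libraries moves both values in opposite directions. Of the 9 members 3 were called, SNHG8 and SNHG16 higher and GAS5 lower, against 27.9% of all tested genes (14.9% higher and 13% lower). Their median log2 fold change was 0.06, beside 0.01 over all tested genes. Groups did not overlap for 2 members higher in the knockout and 2 lower, against 21.8% and 19.5% of tested genes (41.3% in either direction).

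GAS5 moved most. The gene (ENSG00000234741.10, chr1:173863900-173868882, minus strand) carries a series of C/D box snoRNAs, among them SNORD44 and SNORD81. GAS5 was counted at 112, 111 and 126 CPM on vehicle, 95, 96 and 112 CPM in wild-type cells on palbociclib, and 75.8, 63.8 and 75.9 CPM in the knockout. The knockout libraries were below every wild-type library, while the wild-type groups touched, the palbociclib library of set 3 reaching the vehicle range. Against wild-type cells on the drug GAS5 was lower by a log2 fold change of -0.49 ± 0.081 (adjusted p = 0.000430, 95% interval -0.67 to -0.32), or -28.9%. Within the sets the differences were -0.33, -0.59 and -0.57.

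SNHG16 (ENSG00000163597.17, chr17:76557766-76565348, plus strand), the host of SNORD1 snoRNAs, went the other way. Its levels were 72.3, 74.0 and 76.4 CPM on vehicle, 82.2, 79.7 and 77.6 CPM on palbociclib, and 96.5, 96.5 and 91.4 CPM in the knockout. The 3 groups formed 3 separate steps without overlap. SNHG16 was higher in the knockout by 18.8%, a log2 fold change of 0.25 ± 0.048 with an adjusted p of 0.000530. SNHG8 stood at 52.2, 50.2 and 49.1 CPM in the knockout, above all 3 wild-type libraries on the drug. It was higher by 15.1% (log2 fold change 0.20 ± 0.058, adjusted p = 0.0116), and the call was lost without the palbociclib library of set 2 (adjusted p = 0.0804) or the knockout library of set 1 (0.0540).

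ZFAS1 (ENSG00000177410.13, chr20:49278178-49295738, plus strand), the host of SNORD12, SNORD12B and SNORD12C, was at 21.5, 19.9 and 21.5 CPM on vehicle, 20.3, 20.5 and 23.2 CPM on palbociclib, and 19.5, 17.3 and 19.2 CPM in the knockout. Every knockout library was below every wild-type library. The log2 fold change of -0.19 ± 0.074 had an adjusted p of 0.0597, and 0.0157 with the set as a replicate block.

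The 4 members that fell with the drug had small differences between knockout and wild-type cells on it. For SNHG1 the log2 fold change was 0.02 with a 95% interval of -0.11 to 0.15, for SNHG15 0.06 with -0.16 to 0.27, for SNHG12 0.10 with -0.11 to 0.31, and for SNHG5 0.07 with -0.28 to 0.42. SNHG6 stood at -0.08 with an interval of -0.20 to 0.05. None of the 5 passed, with adjusted p of 0.366 to 0.863. The interval was widest for SNHG5.

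The third comparison put knockout cells on palbociclib beside wild-type cells on vehicle, the full distance over which both drug and genotype changed. In it 7 members were called, 5 lower and 2 higher, against 51.7% of all tested genes (26.0% lower and 25.7% higher). Groups did not overlap for 6 members that were lower and 2 that were higher, against 29.7% and 28.8% of tested genes (58.5% in either direction). GAS5 was lower by a log2 fold change of -0.69 ± 0.080 (adjusted p = 6.47e-06), or -38.2%, the largest distance of any member before its neighbours are taken into account. The 47 tested genes within 5 Mb of GAS5 had a median of -0.54 here, and GAS5 minus that median was -0.15. For SNHG1 the value minus the median of its neighbours was -0.54. SNHG1 was at -0.58 ± 0.063 (adjusted p = 3.14e-07), SNHG15 at -0.40 ± 0.098 (adjusted p = 0.00329) and SNHG12 at -0.34 ± 0.098 (adjusted p = 0.00706). SNHG8 was 28.1% higher, with an adjusted p of 2.95e-05, and SNHG16 27.8% higher, with an adjusted p of 3.45e-06. SNHG5 was at -0.40 ± 0.16 with an adjusted p of 0.0434. This call was lost under 10 of 16 alternatives, with an adjusted p of up to 0.187 without the vehicle library of set 2. ZFAS1 was at -0.16 ± 0.074 with an adjusted p of 0.0692, and 0.0239 with the replicate block.

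The chromosome around each member was read beside it, because an edited line can differ from its parent in the number of copies of a chromosome segment. Within 5 Mb of GAS5 on either side 47 other genes were tested. Between knockout and wild-type cells on the drug their median log2 fold change was -0.56, with quartiles of -0.71 and -0.19, and 39 of 47 were lower in the knockout. GAS5 minus this median was 0.06, so the GAS5 difference was no larger than that of its neighbours. Between palbociclib and vehicle in wild-type cells, which share a genome, the same 47 genes had a median of -0.05.

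SNHG16 and ZFAS1 had values close to those of their surroundings. Of 156 tested neighbours of SNHG16, 128 were higher in the knockout, with a median of 0.19, and SNHG16 minus that median was 0.06. Of 106 neighbours of ZFAS1, 75 were lower, with a median of -0.16 and a remainder of -0.03 for ZFAS1. The 35 neighbours of SNHG8 had a median of -0.02, with quartiles of -0.12 and 0.21, and SNHG8 at 0.20 lay within those quartiles. DNA was not measured, and for GAS5, SNHG16 and ZFAS1 a change in the gene's own regulation and a change in the copies of its segment cannot be told apart.

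For the drug the neighbours stayed near 0. Their median was -0.08 over 247 genes around SNHG1, -0.02 over 160 around SNHG12, 0.10 over 37 around SNHG5 and -0.10 over 61 around SNHG15. SNHG1 was 0.52 below its neighbours, SNHG5 0.57 below and SNHG12 0.42 below on the log2 scale. The plot of fold changes beside neighbours shows the contrast between the comparisons.

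**Figure D2:**
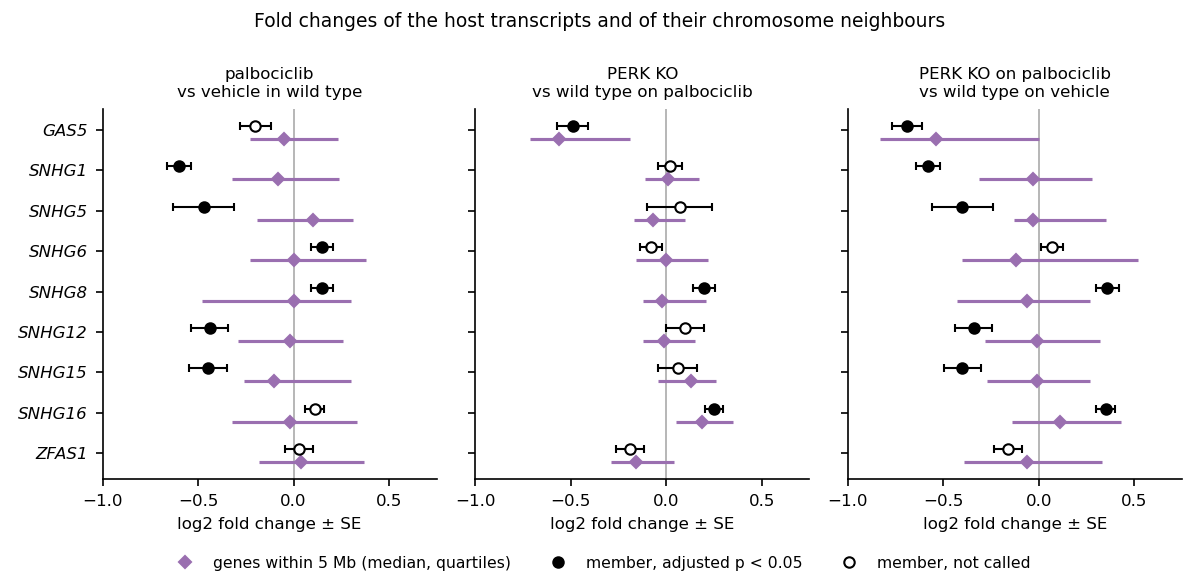
Fold changes of the host transcripts and of the genes within 5 Mb. The x axis is the log2 fold change, each row is 1 member, and there is 1 panel per comparison. Black points with bars are the member ± SE. Purple diamonds with bars are the median and quartiles of its tested neighbours. For the drug in wild-type cells the neighbours sit near 0 and SNHG1, SNHG5, SNHG12 and SNHG15 lie to the left, and in the comparison of knockout with wild-type cells GAS5 at -0.49 lies on its neighbours' median of -0.56.

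Several members start next to a gene on the opposite strand. The sources used here name no step that marks the strand, so reads from overlapping stretches cannot be assigned to either gene with certainty. The pairs were compared for what the 2 neighbours of a start region did in the same libraries.

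SLC3A2, the heavy chain of amino acid transporters such as that for leucine and cystine and a known target of the PERK effector ATF4, starts 188 bases from SNHG1 and does not overlap it. It stood at 272 ± 14 CPM on vehicle, 279 ± 11 CPM on palbociclib and 220 ± 6.3 CPM in the knockout (SD, n = 3). SLC3A2 was lower in the knockout (log2 fold change -0.34 ± 0.050, adjusted p = 2.98e-05) and had a value of 0.04 ± 0.050 for the drug (adjusted p = 0.588). SNHG1 had the opposite profile, passing for the drug and not for the knockout. The difference between the members of the pair was not tested.

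ZNFX1, a helicase of antiviral defence, starts 248 bases from ZFAS1 and overlaps it by 249 bases. It rose on the drug from 112 ± 2.9 to 150 ± 5.0 CPM (log2 fold change 0.41 ± 0.048, adjusted p = 8.59e-07) and stood at 136 ± 5.0 CPM in the knockout (-0.14 ± 0.048, adjusted p = 0.0298, not called without the palbociclib library of set 1, at 0.143, or the knockout library of set 1 or 2, at 0.110 and 0.103). ZFAS1 itself held between 17.3 and 23.2 CPM throughout, though some of its reads could belong to ZNFX1.

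ZBTB37, a zinc finger gene, starts 800 bases inside GAS5 as annotated, and the genes overlap by 801 bases. It fell in both comparisons, from 28.4 ± 1.8 CPM on vehicle to 22.6 ± 0.62 CPM on palbociclib (log2 fold change -0.33 ± 0.069, adjusted p = 0.000659) and 17.2 ± 1.3 CPM in the knockout (-0.40 ± 0.071, adjusted p = 0.000277). It is also 1 of the 47 neighbours of GAS5. TRNAU1AP, a selenocysteine tRNA factor, overlaps SNHG12 by 8 bases. It fell from 24.0 ± 0.60 to 20.0 ± 0.68 CPM on the drug (-0.26 ± 0.063, adjusted p = 0.00185) and was at 19.5 ± 0.47 CPM in the knockout (-0.03 ± 0.063, adjusted p = 0.738). TRNAU1AP and SNHG12 thus passed the test in the same direction for the drug. The partners of SNHG6 and SNHG16, MCMDC2 and AC015802.4, were near or under 1 CPM in these libraries.

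**Figure D3:**
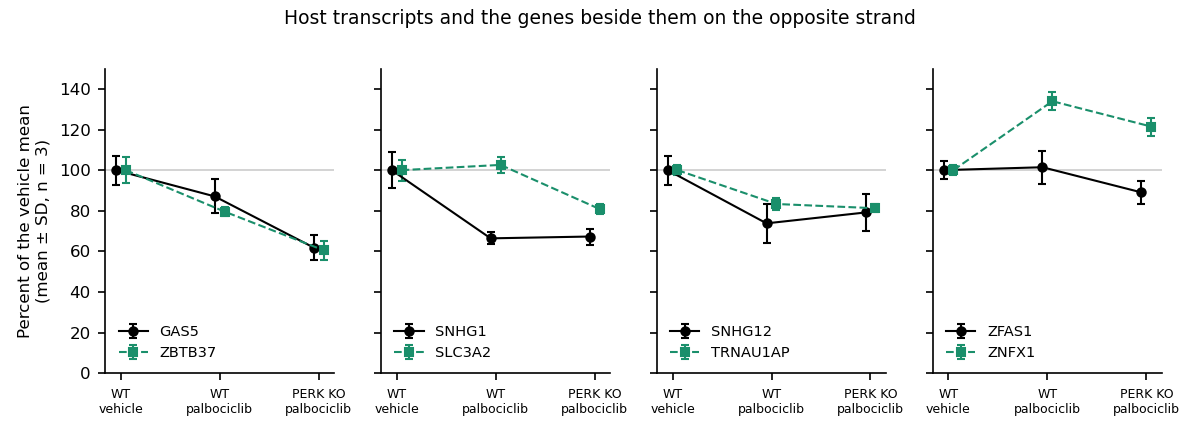
Host transcripts and the genes beside them on the opposite strand. The y axis is the level as percent of the vehicle mean, points are means of 3 libraries with SD bars, and the x axis gives the 3 groups, from vehicle through the drug to the drug with PERK knockout. SNHG1 falls with the drug while SLC3A2 falls in the knockout, ZNFX1 rises with the drug while ZFAS1 stays near 100, and GAS5 and ZBTB37 are lowest in the knockout, where both passed the test, as ZBTB37 did for the drug and GAS5 did not.

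The snoRNAs themselves were scarcely counted. They are short and have no poly(A) tail, and the libraries were made from poly(A)-selected RNA. The part of this, or of the unknown assignment of reads to genes, in the low counts was not tested. GENCODE 29 places 22 snoRNA gene IDs inside 8 of the members on the same strand, 7 of them in SNHG1, 5 in SNHG12, 3 each in SNHG16 and ZFAS1, and none in GAS5. All 22 were in the table, and 18 were listed at 0 in every library, where a count of 0 allows up to 3 counts per library by counting error. The most counted were SNORD99, in SNHG12, and SNORD12C, in ZFAS1, shown here because they are the only ones with more than 3 counts in a library. Capitals mark TGATGA, the box C motif, and the last CTGA, the box D motif, as found by exact match.
SNORD12C (GRCh38, chr20:49278940-49279028, plus strand): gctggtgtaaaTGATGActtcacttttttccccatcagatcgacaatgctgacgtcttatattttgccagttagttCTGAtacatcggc
SNORD99 (GRCh38, chr1:28578749-28578822, minus strand): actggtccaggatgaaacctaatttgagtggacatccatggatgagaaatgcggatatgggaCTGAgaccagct
SNORD99 had 13 to 30 counts per library and SNORD12C 2 to 11. Only SNORD99 passed the filter, with a log2 fold change of -0.41 ± 0.30 for the drug (adjusted p = 0.290) and -0.01 ± 0.32 for the knockout (adjusted p = 0.993). No change in SNORD99 was detected at this depth, and reads on a snoRNA may come from unspliced host RNA. SNORD12C, which was not tested, had 4 to 11 counts on vehicle, 7 to 11 on palbociclib and 2 to 6 in the knockout.

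The sets left a trace in the hosts. In the model with the set as a block, 4 of the 9 members (GAS5, SNHG1, SNHG12 and SNHG15) differed between sets at an adjusted p under 0.05, with values of 0.00519, 0.0149, 0.0303 and 0.0276, against 8.07% of tested genes. SNHG12, like SNHG1, was lowest in set 2 in all 3 groups. For the other 5 the adjusted p was 0.298 to 0.98. What the sets differ in is not given by the labels, and its part was not tested.

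Other snoRNA hosts were read from lists, described by their counts and medians. Beside these counts stand the 43.7% of all tested genes called for the drug and the 27.9% called for the knockout on the drug. Of 17 tested noncoding hosts outside the 9, 7 fell and 4 rose on the drug (median -0.27), with SNHG10 falling from 7.64 ± 0.51 to 4.43 ± 0.17 CPM (log2 fold change -0.78 ± 0.11, adjusted p = 7.69e-06) and SNHG18 rising from 9.09 ± 0.76 to 16.2 ± 1.8 CPM (0.84 ± 0.11, adjusted p = 3.01e-06). In the knockout 6 were higher and 2 lower (median 0.21), and 5 in all were called without the knockout library of set 3. SNHG26 went from 16.4 ± 0.40 to 27.8 ± 4.8 CPM, with an adjusted p of 0.000570, and its 62 neighbours had a median of 0.23. SNHG14, the long host at the imprinted Prader-Willi locus, went from 93.5 ± 5.1 to 54.4 ± 3.6 CPM (-0.78 ± 0.058, adjusted p = 4.37e-09), and its 21 neighbours had a median of 0.10. These hosts, like the 9, moved in both directions.

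Most protein-coding hosts outside the ribosomal protein genes fell on the drug. Of 24 such hosts tested, 17 fell and 2 rose on the drug (median -0.27). NOP56, a core protein of C/D box snoRNPs and a snoRNA host itself, fell from 280 ± 8.1 to 191 ± 4.9 CPM (log2 fold change -0.56 ± 0.050, adjusted p = 3.27e-08). SNRPB, of the spliceosomal core, fell from 191 ± 2.8 to 124 ± 5.2 CPM (-0.62 ± 0.047, adjusted p = 3.12e-09). Both were lower again in the knockout, NOP56 at 125 ± 7.5 and SNRPB at 84.7 ± 2.4 CPM, where the median of the 80 genes around each was -0.57 and -0.58, close to their own -0.61 and -0.55. In the knockout 7 of the 24 were higher and 3 lower (median 0.05).

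Most ribosomal protein genes with intronic snoRNAs were higher in the knockout. Of 21 tested, 2 rose and 1 fell on the drug, with a median of 0.01, and 6 in all were called with the replicate block and 5 with limma-voom. RPL3 rose from 1319 ± 11 to 1642 ± 59 CPM (log2 fold change 0.32 ± 0.047, adjusted p = 1.76e-05). In the knockout 18 of 21 were higher and none lower than in wild-type cells on the drug, with a median of 0.28 beside 0.01 over all tested genes. RPL23 went from 598 ± 24 to 917 ± 6.3 CPM (0.62 ± 0.047, adjusted p = 5.98e-09) and RPL4 from 2548 ± 27 to 3447 ± 10 CPM (0.44 ± 0.046, adjusted p = 4.31e-07). The 156 neighbours of RPL23 had a median of 0.32 and the 102 of RPL4 one of 0.07. Among the 9 noncoding hosts 2 were higher in the knockout and 1 lower.

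Most tested genes for the proteins that build snoRNPs, and most for the factors of nonsense-mediated decay, were called lower on the drug. Of 17 tested snoRNP proteins and assembly factors, 14 fell, none rose and 3 were not called (median -0.25). COIL, the scaffold of Cajal bodies, fell from 49.5 ± 0.56 to 32.7 ± 0.63 CPM (log2 fold change -0.60 ± 0.054, adjusted p = 3.37e-08) and was higher in the knockout, at 40.6 ± 2.2 CPM (0.31 ± 0.055, adjusted p = 0.000199). In the knockout 4 of the 17 were higher and 1, NOP56, lower, and with the replicate block 9 were called. Of 18 tested factors of nonsense-mediated decay, 12 fell, 1 rose and 5 were not called on the drug (median -0.18), among them MAGOH of the exon junction complex, from 44.5 ± 1.1 to 30.3 ± 1.1 CPM (-0.55 ± 0.054, adjusted p = 1.01e-07). SMG9, a regulator of the decay kinase SMG1, fell from 83.0 ± 6.9 to 56.7 ± 1.4 CPM (-0.55 ± 0.056, adjusted p = 1.71e-07) and was at 45.4 ± 1.0 CPM in the knockout (-0.32 ± 0.058, adjusted p = 0.000281). In the knockout 4 of the 18 decay factors were lower and 1 higher (median -0.06), a share close to the 27.9% of all tested genes.

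Of 13 genes listed for the control of TOP mRNAs or of translation more broadly, 6 fell and 2 rose on the drug (median -0.18). In the knockout 1 was higher and 2 lower (median -0.04). The knockout count is not firm: none was called without the knockout library of set 2, 1 without the palbociclib library of set 1 or 2 or the knockout library of set 1 or 3, and 5 with the replicate block. PDCD4, an inhibitor of the helicase eIF4A, rose most, from 33.5 ± 1.7 to 85.0 ± 4.1 CPM (log2 fold change 1.34 ± 0.057, adjusted p = 9.61e-13). RPTOR, the Raptor subunit of mTOR complex 1, was at 103 ± 8.5 CPM in wild-type and 126 ± 7.6 CPM in knockout cells on the drug (0.29 ± 0.077, adjusted p = 0.0112, and 0.05 without the knockout library of set 2). Of a list of 7 tested long noncoding RNAs, 1 rose (SNHG14) and 1 fell (OIP5-AS1) on the drug. In the knockout 2 were higher (NEAT1 and OIP5-AS1) and 1 lower (SNHG14). With the replicate block 4 were called for the drug and 5 for the knockout. Where these RNAs lie in the cell was not measured. In the knockout NEAT1, the scaffold of paraspeckles, went from 690 ± 158 to 1464 ± 219 CPM (1.09 ± 0.19, adjusted p = 0.00603).

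**Figure D4:**
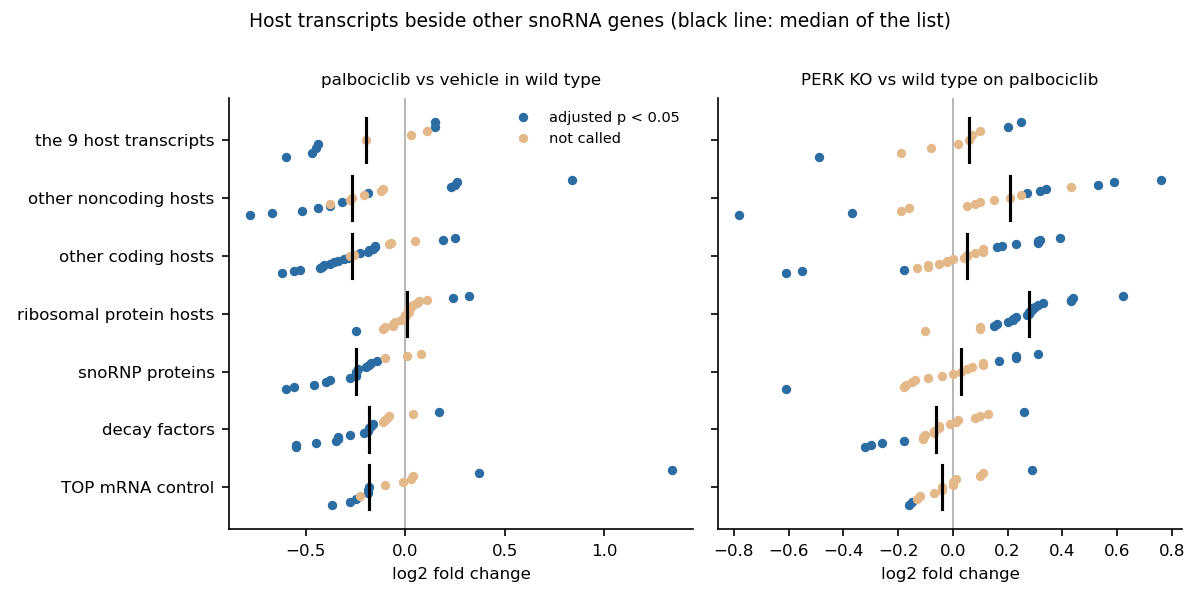
The 9 host transcripts beside other genes of snoRNA biology. The x axis is the log2 fold change, each row is a list, each point is 1 tested gene, blue where the adjusted p was under 0.05 and tan where not, and the black line is the median of the list. On the drug the snoRNP proteins have a median of -0.25 and the ribosomal protein hosts 0.01, and in the knockout the ribosomal protein hosts have a median of 0.28 while the 9 hosts spread from -0.49 to 0.25.

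Across the 9 libraries the genes whose log2 levels most resembled the mean profile of the members were LSM8 (Pearson r = 0.967), VPS29 (0.965) and RABGGTB (0.959), out of 11121 genes compared. The profile was high on vehicle and low in both drug-treated groups, and the 3 genes went the same way, RABGGTB with means of 91.9, 78.5 and 77.2 CPM. This mean does not describe every member. SNHG8 and SNHG16 were lowest on vehicle and highest in the knockout, and SNHG16 ran against GAS5 (r = -0.940). These r values are a description over 9 libraries in 3 groups that share their depth and their sets.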

How the data were processed

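Poly(A)-selected RNA of 9 U2OS libraries was sequenced, with cDNA primed by random hexamers per the labels' protocols. The deposited values are raw whole-number counts per gene, 1 column per library, and a strand-marking step is not stated. The submitters' processing notes list STAR 2.7.9a, Trim Galore, CASAVA, FastQC and DESeq2 without saying what each did, and the build hg38. Which program counted the reads, with what strand setting and annotation, is not given in the sources used here. How it split reads between overlapping or near-identical genes is therefore unknown.

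Counts were tested with edgeR 4.0.16 (quasi-likelihood F test, robust, TMM factors of 0.977 to 1.01, default low-count filter; limma 3.58.1, R 4.3.3) in 1 model of 3 groups over all 9 libraries. The 19408 genes kept held 99.91% of counts. A call is a Benjamini-Hochberg adjusted p under 0.05 over all genes kept. CPM are TMM scaled. Levels carry their SD and log2 fold changes their SE. Groups came from the labels. The set numbers were checked for pairing: over 12932 genes all 9 same-set pairs of libraries had deviations that correlated (r of 0.176 to 0.541), while the 18 different-set pairs lay between -0.401 and 0.0714. The pairing comes from the data, and a fit with the set as a block was an alternative, beside other normalizations, no filter, DESeq2 1.42.0, limma-voom, the 6 libraries compared, leaving out each library, and subtracting the median of genes within 5 Mb. The fit was tested on simulated data.

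Symbols matched 62700 of 70116 IDs and positions 58261, from GENCODE 29 on GRCh38. Start regions came from RefSeq. Python 3.11.15 and matplotlib 3.10.9 did the rest. Genes named outside the 9 members were EIF2AK3, the 2 called genes with the largest change per list and comparison at a mean of at least 5 CPM, opposite-strand partners that start within 1 kb of a member or overlap it, and the 3 genes most like the mean profile; not all are printed. The members and lists were chosen with earlier results of these data known.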

Additional observations from a re-analysis of the deposited data

How the results depend on the processing

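Depth limits SNHG5 and the snoRNAs, which had few counts, and 3 libraries per group limit every small change. Of 432 values of the members under 16 alternatives in 3 comparisons, 382 kept their direction and side of the threshold where one applied, 30 lost the call, 12 gained it and 8 changed sign; the cause was not tested. With the replicate block, 8 members were called for the drug, 4 for the knockout on the drug and 8 for both changes, and no call of a member was lost. Leaving out 1 library gave 3 to 6 members for the drug, the 3 without the vehicle library of set 2 or the palbociclib library of set 1. All alternatives together gave 3 to 8, 2 to 4 and 6 to 8 members in the 3 comparisons. Calls over all genes ran from 7357 to 9762, 4272 to 7068 and 9048 to 11154. GAS5 passed for the drug with no low-count filter (0.00456), DESeq2 (0.0468), and without the palbociclib library of set 3 (0.00706) or the knockout library of set 2 (0.0195).

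The 8 changes of sign were all of values that had not passed. The ZFAS1 log2 fold change for the drug was -0.01 without the vehicle library of set 2 and -0.02 without the palbociclib library of set 3. For the knockout on the drug, SNHG1 was at -0.02 and SNHG12 at -0.00 without the palbociclib library of set 2 or the knockout library of set 1. SNHG5 was at -0.03 without the knockout library of set 1 and SNHG15 at -0.01 without that of set 3. The highest values on leaving out 1 library were 0.06 for SNHG1, 0.16 for SNHG12, 0.13 for SNHG5, 0.17 for SNHG15, and 0.06 for ZFAS1 on the drug. Outside these 8, GAS5 for the knockout on the drug was at 0.06 once the median of its neighbours was subtracted, by construction of that alternative. Subtracting that median gives no test and is not among the 16 alternatives. The median log2 fold change of all genes lay between -0.02 and 0.02 in each comparison under TMM, RLE and upper quartile normalization.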
